A study of Homo sapiens with 9 samples.

Results

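The DNA replication genes described here are 52 genes for the licensing of replication origins, for the replication machinery and for its supply of nucleotides. They were taken by gene symbol, and all 52 were found among the 46427 genes of the count table. The cells belonged to the established line H9, human embryonic stem cells (hESC). The first group was neural progenitors (NPC), differentiated for 11 days towards midbrain dopamine neurons and given bafilomycin A1 (BafA1 NPC). BafA1 blocks the vacuolar proton pump, and with it the acidification of lysosomes and the clearance of autophagosomes; the labels give a concentration of 10 nM and a duration of 6 h, and several day windows are listed, without a statement of which one applies to the sequenced cells. The second group was untreated day 11 NPC (control NPC) and the third was undifferentiated, untreated hESC, with 3 libraries in each group. The differentiation medium held the receptor inhibitors LDN193189 (200 nM) and SB431542 (10 µM), which block BMP and TGF-beta signalling. It also held the Hedgehog agonist purmorphamine (2 µM) and CHIR99021 (3 µM), which activates WNT signalling. All groups come from a single line, and libraries within a group are labelled biological replicates with no word on separate cultures, so p-values measure only the spread between these libraries.

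A replication origin is licensed in late mitosis and early G1 phase, when the origin recognition complex (ORC), CDC6 and CDT1 load the MCM2-7 helicase onto DNA. The kinase CDC7 with DBF4, together with CDC45 and the GINS complex, then turns the loaded helicase into an active one at the start of S phase, and geminin (GMNN) holds CDT1 back so that no origin is licensed again in the same cycle. Many of these genes are known targets of E2F transcription factors, whose activity rises as a cell passes from G1 into S phase, and dividing neural progenitors express them until they leave the cycle.

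Library totals were 43124679 to 69703791 counts and a member had between 270 and 31501 counts in a library. Levels are given as CPM, counts scaled to a common library size after TMM normalisation, so changes are relative to the bulk of genes, with mean ± SD over n = 3 libraries. All 8 pluripotency markers were lower in both NPC groups than in hESC; TDGF1 had no count in any NPC library and POU5F1 had 1 count in a single BafA1 NPC library, while LIN28A stayed abundant. The 8 summed to 813 to 889.85 CPM in BafA1 NPC, against 581 to 641 CPM in control NPC, with 5640.4 to 5969.7 CPM in hESC. All 10 floor plate and neural progenitor markers were higher in each NPC group than in hESC, and 5 of them rose and 1 fell in BafA1 NPC against control NPC. Endoderm markers summed to at most 24.5 CPM in any library. The summed level of 9 mesenchyme and neural crest markers was 3099 to 3459 CPM in BafA1 NPC and 1670.5 to 2771 CPM in control NPC. Their sum in hESC was 179 to 194 CPM. In that list 4 of 9 genes were higher in BafA1 NPC than in control NPC (COL1A1, COL1A2, PDGFRB and SOX10). The 2 that were lower, LUM and PRRX1, had log2 changes of -1.67 and -1.54, each without overlap between groups. The neural crest gene SOX10 had 0, 7 and 8 counts in BafA1 NPC libraries and 0 in each control NPC library. SOX10 was called lower in control NPC than in hESC. Postmitotic neuron markers summed to 414 to 479 CPM in BafA1 NPC and 429 to 477 CPM in control NPC, and 4 of 12 were higher in BafA1 NPC. Such marker changes are calls at an edgeR adjusted p under 0.05. For BafA1 NPC against control NPC, 20.8% of all genes tested were called higher and 20.7% lower. The part of these lists in the results below was not tested. In bulk RNA, fewer cells with a transcript and less of it per cell cannot be told apart.

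The main comparison set BafA1 NPC against control NPC. Of the 52 genes, 38 fell and 2 rose at an edgeR adjusted p under 0.05, and 12 did not pass the test. Over all 20685 genes tested, 20.7% fell and 20.8% rose by the same rule. The median log2 change of the members was -0.63, against 0 for all genes tested. Falls were called in all 6 MCM2-7 genes, all 8 genes of helicase activation, all 4 of nucleotide supply and both of chromatin assembly. The 2 that rose were CDT1, which loads the helicase, and POLD2, an accessory subunit of DNA polymerase delta.

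The members' summed level was 3429, 3739 and 3374 CPM in BafA1 NPC libraries, against 5461, 5037 and 4625 CPM in control NPC libraries. It was 6169, 6056 and 5789 CPM in hESC libraries, so that every BafA1 NPC library lay below every library of the other groups. As a share of all counts, without TMM scaling, the members made up 0.35, 0.356 and 0.312% in BafA1 NPC, against 0.573, 0.532 and 0.49% in control NPC. In 38 members each BafA1 NPC library lay below each control NPC library, and in 3 each lay above (ORC1, CDT1 and POLD2). Over all genes tested 25.1% were below without overlap and 24.1% above. Falls of at least 2-fold in the estimate were called in 9 members (CLSPN, GINS3, E2F2, PCNA, FEN1, RRM2, GINS4, MCM6 and CDC6), against 4.54% of all genes tested, and neither rise reached 2-fold, which 6.37% of all genes tested did. Scaling by library size alone moved the median of all genes by -0.12 and split the calls over all genes into 3104 higher and 5681 lower, against 4309 and 4277 with TMM. The members then split into 2 higher and 42 lower.

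**Figure D1:**
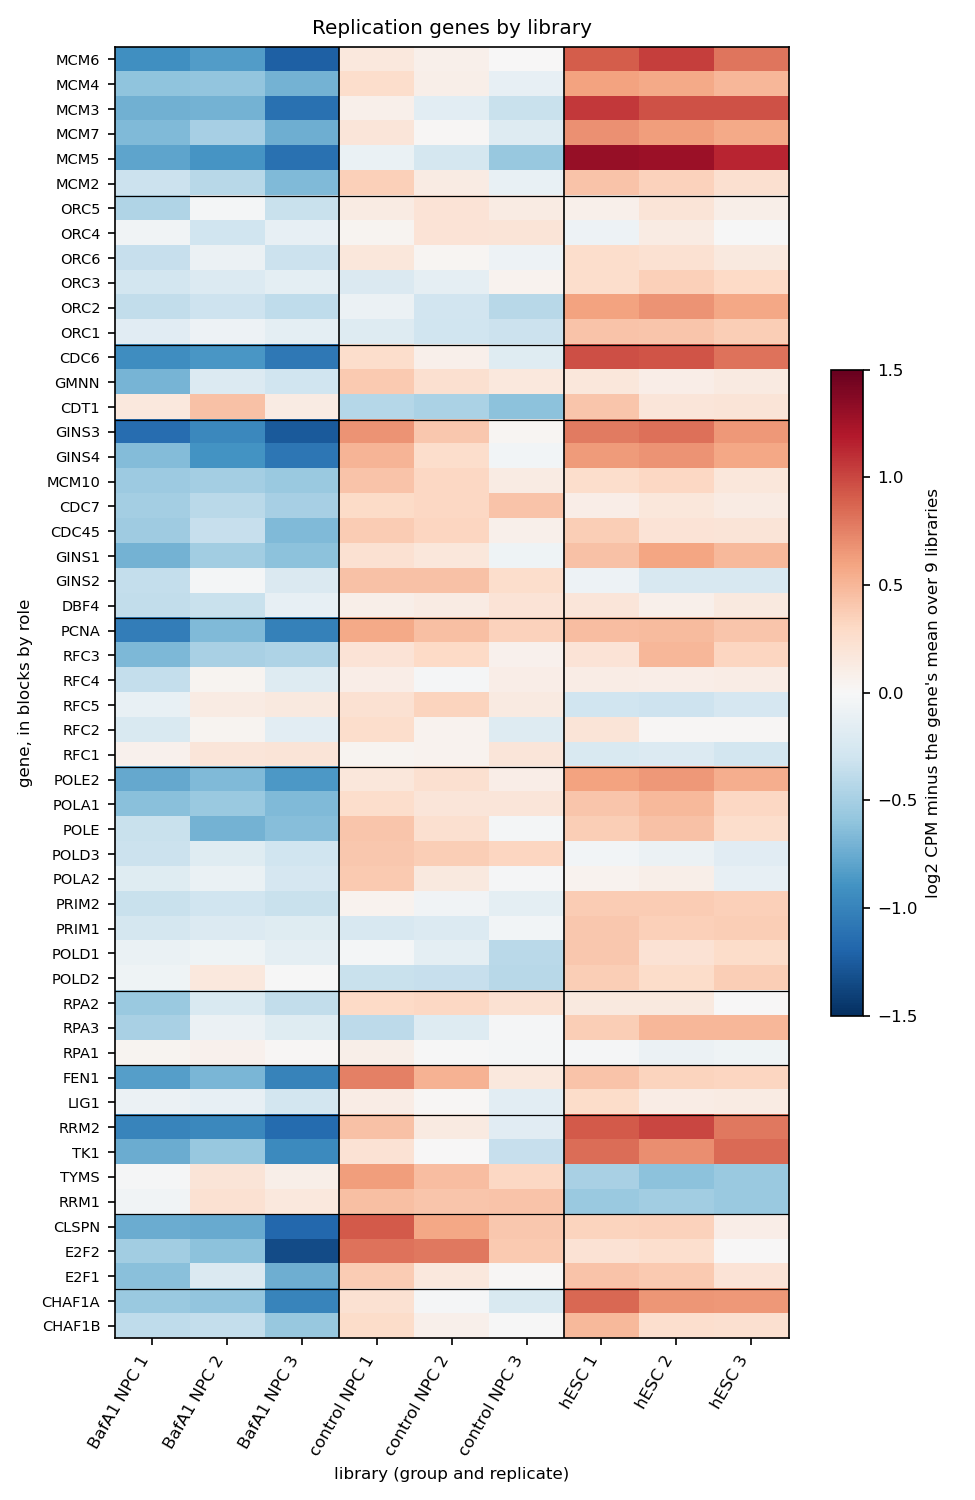
Level of each of the 52 replication genes (rows, in blocks by role) in each of the 9 libraries (columns), as log2 CPM minus the gene's mean over the 9 libraries. Blue is below and red above the gene's mean; the 3 BafA1 NPC columns are bluer than the control NPC columns in the 38 genes that fell, while the CDT1 and POLD2 rows run the other way.

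Promoter sequences of members that moved with BafA1 are shown because 38 of the 52 fell together and promoter letters were not used to choose the 52 members. The promoters printed below, however, were chosen for holding a match to the letters searched. Windows of 250 bases before to 50 after a gene start were available from RefSeq (GRCh38.p14) for 46 of the 52 members, in 58 windows, since some genes have more than 1 start. MCM4, MCM5, GINS4, POLD3, RPA2 and RPA3 had no entry. They were searched on both strands for the E2F-like letters TTTCCCGC, TTTGGCGC, TTTCGCGC and TTTGCCGC, which can overlap each other on opposite strands. Of the 46 members, 23 held such a match in at least 1 window, and at the level of windows the share was 39.7% (23 of 58). Among all 35116 windows of the same length the share was 3.31%, and among the 22199 windows of protein-coding genes it was 4.10%. Neither set was matched to the members' windows for base composition or expression. Counted by gene, 855 of 15843 protein-coding genes (5.40%) held a match. The match was present in 20 of 33 members that fell in BafA1 NPC, in 2 of 11 that did not pass the test and in 1 of 2 that rose. With only the bases before the start, these counts were 14 of 33, 2 of 11 and 1 of 2. The letters CCAAT were present in 19 of 33, 7 of 11 and 1 of 2 of the same members. Differences between these groups of members were not tested.

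The 5 genes with the largest falls that hold a whole match before their most upstream start, and CDT1 as the riser with one, are printed with the matched letters in capitals, 5′ to 3′ on the gene's strand and ending at the last base before the start.
E2F2: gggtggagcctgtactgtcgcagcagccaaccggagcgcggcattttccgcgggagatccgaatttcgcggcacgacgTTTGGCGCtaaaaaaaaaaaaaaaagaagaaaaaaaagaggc
PCNA: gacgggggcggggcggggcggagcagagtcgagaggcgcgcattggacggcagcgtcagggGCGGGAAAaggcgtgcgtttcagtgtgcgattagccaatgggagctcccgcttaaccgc
MCM6: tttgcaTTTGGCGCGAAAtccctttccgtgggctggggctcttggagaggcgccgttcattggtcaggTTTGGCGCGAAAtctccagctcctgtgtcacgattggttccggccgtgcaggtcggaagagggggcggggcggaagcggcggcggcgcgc
POLA1: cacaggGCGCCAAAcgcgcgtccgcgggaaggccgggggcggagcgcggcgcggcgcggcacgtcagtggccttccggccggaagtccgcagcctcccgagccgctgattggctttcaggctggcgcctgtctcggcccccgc
POLE: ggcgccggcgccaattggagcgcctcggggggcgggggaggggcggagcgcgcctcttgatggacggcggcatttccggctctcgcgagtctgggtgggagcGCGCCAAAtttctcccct
CDT1: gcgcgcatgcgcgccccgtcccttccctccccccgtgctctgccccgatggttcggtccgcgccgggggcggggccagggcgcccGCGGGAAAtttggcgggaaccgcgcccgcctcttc
The E2F2 stretch (GRCh38.p14 chr1:23531234-23531353, minus strand) has TTTGGCGC starting 42 bases before the start, and the PCNA stretch (chr20:5126623-5126742, minus strand) has TTTCCCGC on the opposite strand, 59 bases before. MCM6 (chr2:135876444-135876601, minus strand) holds 4 matches, which form a pair of copies in which TTTGGCGC overlaps TTTCGCGC of the other strand. POLA1 (chrX:24693775-24693917, plus strand) and POLE (chr12:132687343-132687462, minus strand) each hold TTTGGCGC on the opposite strand, 137 and 18 bases before the start. CDT1 (chr16:88803669-88803788, plus strand), which rose, holds TTTCCCGC on the opposite strand 35 bases before its start, so a match stood before a gene that rose as well as before genes that fell. On either strand, CCAAT was found in 55.2% of the members' windows and in 34.6% of all windows. The CHR-like letters TTTGAA were found in 3.45% and 15.2% of them. A match is a description of letters and shows no binding.

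**Figure D2:**
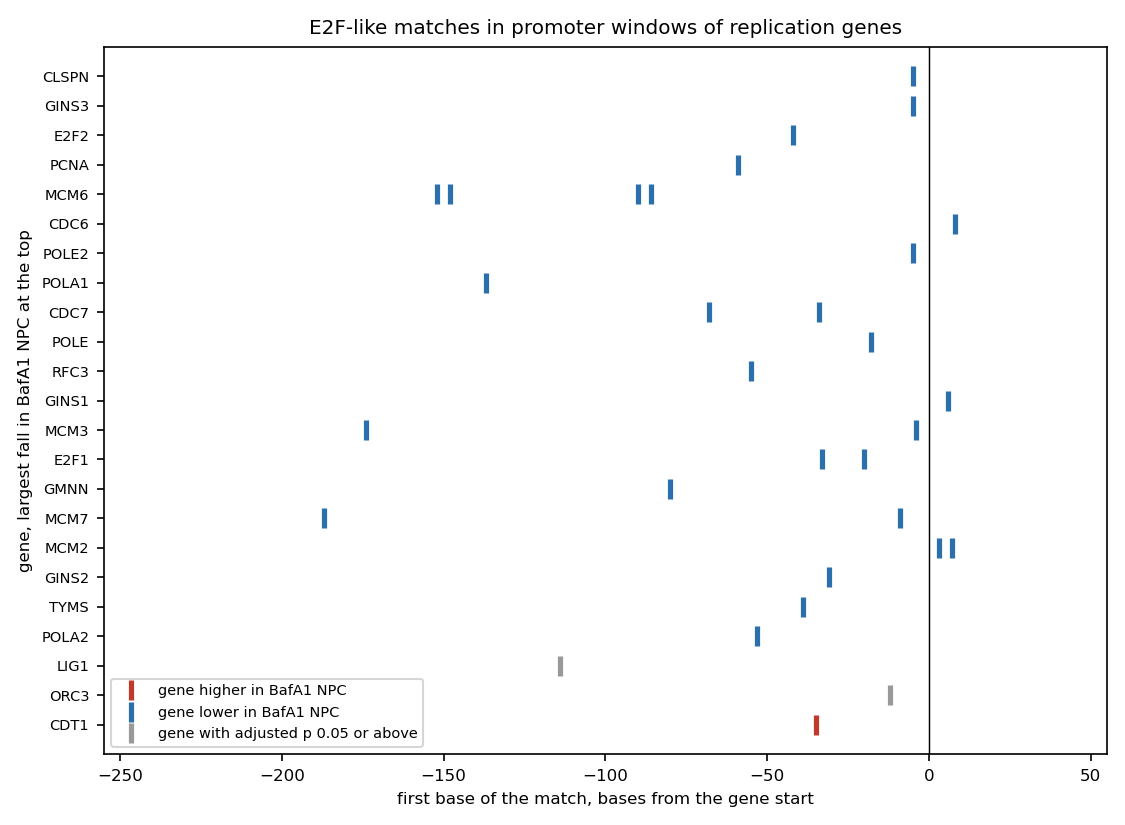
Position of the first base of each E2F-like match, in bases from the gene start, for the 23 replication genes with a match. Genes run from the largest fall in BafA1 NPC at the top (CLSPN) to CDT1, which rose, at the bottom; most matches lie before the start.

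Licensing of origins begins with ORC, and its 6 genes were divided. ORC5 had 19.5, 26 and 21.1 CPM in BafA1 NPC, against 29, 30.6 and 28.9 CPM in control NPC, a log2 change of -0.41 ± 0.11 SE. ORC4 (-0.31 ± 0.091 SE) and ORC6 (-0.29 ± 0.094 SE) also fell. The ORC4 call was lost when each library's trend with GC content and transcript length was removed (-0.13, edgeR adjusted p = 0.106), without BafA1 NPC replicate 2 (adjusted p = 0.0649) and without control NPC replicate 2 (0.0739). The ORC6 call was lost without any of BafA1 NPC replicates 1 and 3 and control NPC replicates 1 and 2 (adjusted p = 0.0663 to 0.101), and in a fit of the 2 groups alone (0.0589). ORC1, an ATPase subunit of the complex, had 46.4, 49.7 and 47.4 CPM in BafA1 NPC, against 45.7, 42.5 and 42 CPM in control NPC. Its libraries did not overlap, but the change of 0.14 ± 0.073 SE did not pass the test (edgeR adjusted p = 0.146); the call was made once GC and length trends were removed (0.17, adjusted p = 0.0418). ORC2 was at 36.1 ± 1.06 CPM in BafA1 NPC and 38.4 ± 4.44 CPM in control NPC, and ORC3 at 60.7 ± 2.86 CPM and 65.5 ± 6.34 CPM in the same groups, with overlapping libraries in both genes. Their estimates were -0.090 ± 0.090 SE and -0.11 ± 0.086 SE, and ORC3 was called lower under scaling by library size (-0.24, adjusted p = 0.0370) and in 3 limma fits on FPKM (-0.25 to -0.24, adjusted p = 0.0293 to 0.0377).

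The helicase loaders moved in opposite directions. CDC6, the ATPase that works with ORC, had 42.3, 43.7 and 38.2 CPM in BafA1 NPC, against 96.6, 84.7 and 70.9 CPM in control NPC. All BafA1 libraries lay well below the lowest control, with a log2 change of -1.02 ± 0.11 SE (edgeR adjusted p = 4.78e-05). CDT1, which brings the helicase to the origin, had 77.3, 93.9 and 75.7 CPM in BafA1 NPC, against 51.4, 50.03 and 45.3 CPM in control NPC. Each treated library was above each control, and the change was 0.75 ± 0.11 SE (edgeR adjusted p = 2.26e-04). GMNN, the inhibitor of CDT1, had 47.9, 67.1 and 63.3 CPM in BafA1 NPC, against 102, 91.6 and 86.2 CPM in control NPC, and fell (log2 change -0.65 ± 0.12 SE). The ratio of CDT1 to GMNN in CPM was therefore 1.61, 1.4 and 1.2 in BafA1 NPC libraries and 0.505, 0.546 and 0.526 in control NPC libraries. In hESC libraries it was 1.06, 0.943 and 0.928. The ratio was chosen after its values were seen and was not tested.

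All 6 genes of the MCM2-7 helicase, the ring that unwinds DNA ahead of the fork, fell. MCM6 had 96, 101 and 77.9 CPM in BafA1 NPC, against 203, 192 and 183 CPM in control NPC. It was the member of the ring with the largest estimate, -1.07 ± 0.11 SE (edgeR adjusted p = 3.43e-05). MCM2 had 129.898, 122 and 103 CPM in BafA1 NPC, against 209, 177 and 150.1 CPM in control NPC, a change of -0.60 ± 0.12 SE. MCM3 had 141, 142 and 107 CPM in BafA1 NPC, against 244, 209 and 184 CPM in control NPC (-0.71 ± 0.13 SE). In both genes the groups stood apart, with the lowest value in BafA1 replicate 3 and the lowest control value in control replicate 3. MCM4 (-0.72 ± 0.10 SE), MCM5 (-0.63 ± 0.12 SE) and MCM7 (-0.64 ± 0.11 SE) gave estimates within the errors of these, with no overlap between groups. Their levels were 176 ± 7.98, 51 ± 5.81 and 180.2 ± 15.5 CPM in BafA1 NPC, against 290.3 ± 38.5, 78.9 ± 12.4 and 281 ± 36.6 CPM in control NPC.

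The ring is assembled from 1 copy of each subunit, and their levels per transcript length (FPKM) were unequal in every group. In BafA1 NPC they ran from 12 ± 1.46 FPKM for MCM5 to 57.8 ± 2.73 FPKM for MCM7, against 20.6 ± 3.42 and 99.4 ± 13.8 FPKM in control NPC. The highest over the lowest of the 6 in a library was 4.29, 5.17 and 5.14 in BafA1 NPC and 4.79, 4.69 and 5.06 in control NPC. In hESC it was 2.8, 2.81 and 2.87, with MCM2 the lowest. MCM7 was the highest of the 6 in all 9 libraries, and it overlaps the gene AP4M1, whose counts were 5.63% of those of MCM7.

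The 8 genes that turn the loaded ring into an active helicase all fell. GINS3, a subunit of the GINS complex, had 5.95, 6.7 and 5.5 CPM in BafA1 NPC, against 21, 17.3 and 13.3 CPM in control NPC, and changed by -1.51 ± 0.16 SE (edgeR adjusted p = 3.84e-05). GINS4, its partner in that complex, had 29.8, 25.2 and 22 CPM in BafA1 NPC, against 66.7, 56.2 and 45.4 CPM in control NPC (-1.13 ± 0.14 SE). The control values of both genes spread widely, from lowest in replicate 3 to highest in replicate 1, and still lay above all treated values. The other GINS subunits fell by less in the estimate, with log2 changes of -0.73 ± 0.094 SE for GINS1 and -0.58 ± 0.098 SE for GINS2. GINS2 had 58.2, 73.1 and 64.1 CPM in BafA1 NPC and 101, 101 and 89.4 CPM in control NPC. CDC45, which completes the active helicase with GINS, had 17.5, 19.9 and 16 CPM in BafA1 NPC, against 33.1, 31.6 and 26.7 CPM in control NPC (-0.78 ± 0.11 SE). MCM10, needed for activation at the origin, was at 36.2 ± 0.576 CPM in BafA1 NPC and 64.2 ± 6.59 CPM in control NPC (-0.83 ± 0.088 SE). CDC7, the catalytic subunit of the activating kinase, had 64.3, 68.8 and 64.7 CPM in BafA1 NPC, against 111, 113 and 123 CPM in control NPC, with a change of -0.81 ± 0.075 SE. DBF4, its regulatory subunit, had 47.9, 49.2 and 57.2 CPM in BafA1 NPC and 65.9, 67.4 and 71.8 CPM in control NPC (-0.41 ± 0.086 SE). Both subunits of the kinase were thus lower without overlap.

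**Figure D3:**
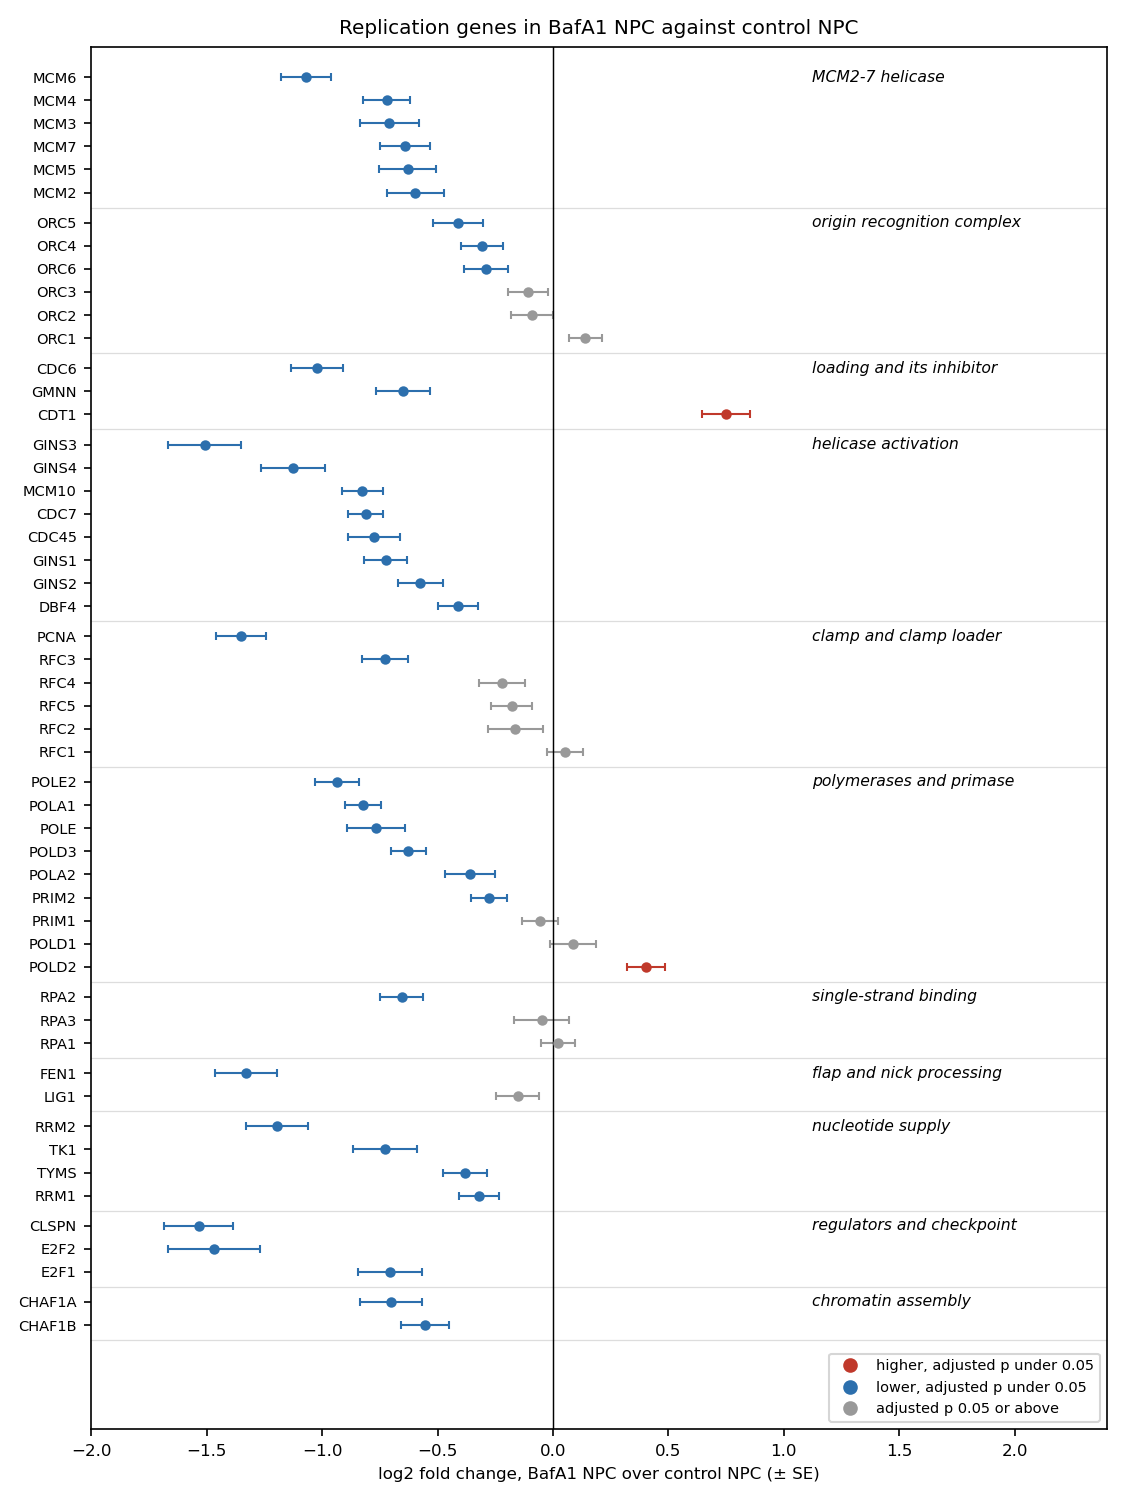
Log2 fold change of each of the 52 genes, BafA1 NPC over control NPC, with its SE, in blocks by role; colour gives the call at an edgeR adjusted p of 0.05. The MCM2-7, helicase activation and nucleotide supply blocks lie wholly left of 0, and CDT1 and POLD2 are the points called to the right.

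At the fork, PCNA forms the sliding clamp that holds polymerases on their template. It had 97.3, 126 and 98.8 CPM in BafA1 NPC, against 295, 274 and 254 CPM in control NPC. No treated library came near a control, and the log2 change was -1.35 ± 0.11 SE (edgeR adjusted p = 1.22e-05). RFC3, a small subunit of the clamp loader, had 33.8, 38.6 and 39.2 CPM in BafA1 NPC, against 62.2, 66.3 and 56.2 CPM in control NPC (-0.73 ± 0.10 SE, edgeR adjusted p = 2.08e-04). The other 4 subunits of the loader did not pass the test. RFC1, the large subunit, had 139, 151 and 152 CPM in BafA1 NPC and 137, 138 and 152 CPM in control NPC (0.052 ± 0.077 SE, edgeR adjusted p = 0.626). Its estimate turned negative under scaling by library size (-0.079) and was called higher once GC and length trends were removed (0.22, adjusted p = 0.0202). RFC2 (-0.16 ± 0.12 SE), RFC4 (-0.22 ± 0.099 SE) and RFC5 (-0.18 ± 0.089 SE) had negative estimates and overlapping libraries. RFC5 was called lower under scaling by library size (-0.31, adjusted p = 0.00832). RFC2 was called lower in 2 limma fits on filtered FPKM (-0.37 to -0.36, adjusted p = 0.0257 to 0.0284) and once GC and length trends were removed (-0.28, adjusted p = 0.0475). RFC4 was called lower without BafA1 NPC replicate 2 (-0.34, adjusted p = 0.0119), under scaling by library size (-0.35, adjusted p = 0.0088) and once GC and length trends were removed (-0.24, adjusted p = 0.0170).

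Among polymerase genes 6 of 9 fell and 1 rose. POLE, the catalytic subunit of the leading-strand polymerase epsilon, had 60.1, 46.2 and 48.5 CPM in BafA1 NPC, against 101, 89.3 and 73.9 CPM in control NPC (-0.77 ± 0.13 SE). Its accessory subunit POLE2 had 9.96, 10.7 and 9.32 CPM in BafA1 NPC, against 19.1, 20.02 and 18.2 CPM in control NPC (-0.94 ± 0.095 SE, edgeR adjusted p = 3.34e-05). Both genes were lower in every treated library than in every control. POLA1, the catalytic subunit of the priming polymerase alpha, had 68.6, 72 and 66.9 CPM in BafA1 NPC, against 127, 119.7 and 120.3 CPM in control NPC, with a change of -0.82 ± 0.078 SE. Its regulatory subunit POLA2 changed by -0.36 ± 0.11 SE, a call lost without BafA1 NPC replicate 3 (adjusted p = 0.0667) or control NPC replicate 1 (0.0769). Of the primase subunits, which make the RNA primer, PRIM2 fell (log2 change -0.28 ± 0.078 SE), a call lost without control NPC replicate 1 (adjusted p = 0.0565) and with GC and length trends removed (0.0899). PRIM1 was at 42.6 ± 1.28 CPM in BafA1 NPC and 44.3 ± 3.25 CPM in control NPC, with overlapping libraries (-0.057 ± 0.077 SE), and was called lower in 3 limma fits on FPKM (-0.20, adjusted p = 0.0322 to 0.0420).

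The subunits of polymerase delta, the enzyme of the lagging strand, went separate ways. POLD2 had 101, 117 and 105 CPM in BafA1 NPC, against 83.3, 82.6 and 78.9 CPM in control NPC, and rose by 0.40 ± 0.081 SE (edgeR adjusted p = 0.00213). Without a filter on low values, limma on FPKM did not call it (0.24, adjusted p = 0.0710). POLD3 had 45.7, 50.5 and 46.6 CPM in BafA1 NPC, against 75.6, 73.7 and 71.1 CPM in control NPC, and fell (log2 change -0.63 ± 0.076 SE). POLD1, the catalytic subunit, had 82.1, 84.6 and 79.8 CPM in BafA1 NPC and 86.1, 79.6 and 66.6 CPM in control NPC, and its estimate of 0.086 ± 0.099 SE turned negative under scaling by library size (-0.041), with limma on FPKM (-0.056 to -0.054), once GC and length trends were removed (-0.14) and without control NPC replicate 3 (-0.013). POLD4, the smallest subunit of the same enzyme and not one of the 52, rose by 0.69 ± 0.11 SE (edgeR adjusted p = 5.18e-04), with 15.9, 17.9 and 18.4 CPM in BafA1 NPC and 10.1, 11.1 and 11.1 CPM in control NPC.

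Replication protein A, which coats single-stranded DNA, was divided too. RPA2 had 45, 56.5 and 51.1 CPM in BafA1 NPC, against 81.2, 82 and 77.3 CPM in control NPC (-0.66 ± 0.092 SE, edgeR adjusted p = 2.20e-04). RPA1, the large subunit, had 195, 199 and 192 CPM in BafA1 NPC and 202, 189.5 and 187 CPM in control NPC (0.020 ± 0.074 SE). RPA3 was at 29 ± 4.06 CPM in BafA1 NPC and 30.0 ± 3.83 CPM in control NPC (-0.049 ± 0.12 SE), and neither RPA1 nor RPA3 passed the test. FEN1, which removes the flaps between Okazaki fragments, had 55.6, 61.2 and 49.2 CPM in BafA1 NPC, against 166, 141 and 109.8 CPM in control NPC. The change of -1.33 ± 0.14 SE (edgeR adjusted p = 3.52e-05) was the fifth largest fall among the members. LIG1, the ligase that joins the fragments after FEN1, had 85.9, 84.1 and 75.7 CPM in BafA1 NPC and 98.7, 92.4 and 82.1 CPM in control NPC and was not called (-0.15 ± 0.092 SE, edgeR adjusted p = 0.203). LIG1 was called lower under scaling by library size (-0.28, adjusted p = 0.0442), in 3 limma fits on FPKM (-0.38 to -0.36, adjusted p = 0.0107 to 0.0245) and once GC and length trends were removed (-0.19, adjusted p = 0.0461).

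Genes that supply nucleotides fell in all 4 cases, by unequal amounts. RRM2, the regulated small subunit of ribonucleotide reductase, had 56.7, 57.7 and 50.5 CPM in BafA1 NPC, against 153, 124 and 100.2 CPM in control NPC (-1.20 ± 0.14 SE, edgeR adjusted p = 6.12e-05). RRM1, the large subunit, had 216, 261 and 249 CPM in BafA1 NPC, against 307, 298 and 302 CPM in control NPC (-0.32 ± 0.086 SE). Per length, RRM1 was at 62.5 ± 4.13 FPKM in BafA1 NPC and 86.8 ± 1.35 FPKM in control NPC, and RRM2 at 13.8 ± 0.915 FPKM and 34.9 ± 7.51 FPKM in the same groups. RRM1 was thus the more abundant transcript of the pair in both. TK1, a thymidine kinase of the salvage route, had 28.6, 32.3 and 24.8 CPM in BafA1 NPC, against 55.8, 48.2 and 37.7 CPM in control NPC (-0.73 ± 0.14 SE). TYMS, which makes thymidylate, had 187, 215 and 199.8 CPM in BafA1 NPC, against 291, 261 and 233 CPM in control NPC (-0.38 ± 0.097 SE). RRM2B, the stress-responsive counterpart of RRM2 and not one of the 52, had 91.9, 79.7 and 138 CPM in BafA1 NPC and 99, 91.9 and 96 CPM in control NPC and was not called (edgeR adjusted p = 0.612).

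The regulators fell as well. CLSPN, which encodes the checkpoint adaptor claspin at the fork, had 21.4, 21.1 and 15.8 CPM in BafA1 NPC, against 67.7, 53.5 and 47.6 CPM in control NPC. Its change of -1.53 ± 0.15 SE (edgeR adjusted p = 2.81e-05) was the largest of the 52. E2F2, an activator of the E2F family, had 7.37, 6.92 and 4.19 CPM in BafA1 NPC, against 18.7, 18.4 and 13.9 CPM in control NPC (-1.47 ± 0.20 SE). E2F1, of the same class, had 21, 27.9 and 19.6 CPM in BafA1 NPC, against 42.4, 36.2 and 32.9 CPM in control NPC (-0.71 ± 0.14 SE). Both were lower in each treated library than in each control. CHAF1A, a subunit of the chromatin assembly factor that places histones on new DNA, had 52.2, 50.9 and 38.9 CPM in BafA1 NPC, against 89.8, 75.7 and 65.5 CPM in control NPC (-0.70 ± 0.14 SE). CHAF1B, its partner, was at 27.8 ± 2.21 CPM in BafA1 NPC and 40.8 ± 4.22 CPM in control NPC (-0.55 ± 0.10 SE).

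**Figure D4:**
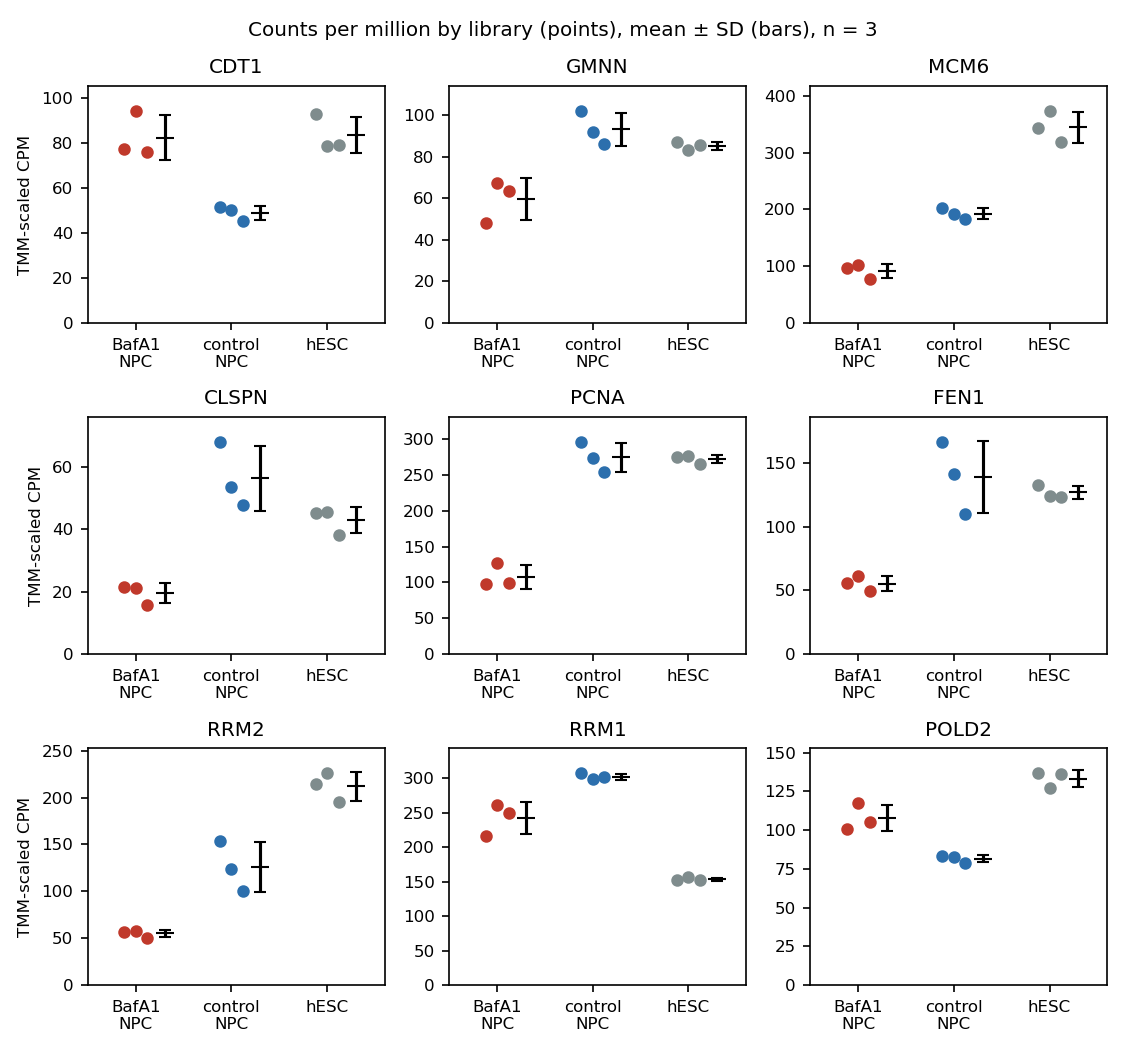
TMM-scaled CPM of 9 of the genes in each library (points) with mean ± SD (bars, n = 3), for BafA1 NPC, control NPC and hESC; each axis starts at 0. CDT1 and POLD2 are higher in BafA1 NPC than in control NPC, and the other 7 genes are lower; RRM1 is higher in both NPC groups than in hESC.

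Of 38 other genes of origins, forks and nucleotide supply, 29 fell and 2 rose in BafA1 NPC (median log2 change -0.46). The shares over all genes tested were 20.7% and 20.8%. Their summed level was 2071 to 2109 CPM in BafA1 NPC and 2627 to 3079 CPM in control NPC. Among the falls with the smallest adjusted p were those of the nuclease-helicase gene DNA2 (-0.65 ± 0.072 SE), the MCM relative MCM8 (-0.76 ± 0.090 SE) and UHRF1 (-1.17 ± 0.15 SE), which guides maintenance methylation of new DNA. DTL, whose product marks CDT1 for destruction in S phase, had 61.6, 63 and 66.7 CPM in BafA1 NPC, against 87.9, 84.2 and 75.2 CPM in control NPC (-0.37 ± 0.083 SE, edgeR adjusted p = 0.00407), but with GC and length trends removed it missed the threshold (-0.21, adjusted p = 0.0503). The 2 that rose were POLD4 and ATAD5, a PCNA unloader (0.31 ± 0.11 SE, edgeR adjusted p = 0.0448). ATAD5 levels overlapped between the groups. The ATAD5 call was lost without any of BafA1 NPC replicates 1 and 3 and control NPC replicates 1 and 2 (adjusted p = 0.0852 to 0.176), and under scaling by library size alone (0.234). It was also lost without a filter on low counts (0.065) and in a fit of the 2 groups alone (0.0786). In 3 limma fits on FPKM it did not pass (0.326 to 0.432).

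Of 20 genes of the G1/S cyclins and the E2F and RB families, 11 fell and 2 rose (median -0.30), against 20.7% and 20.8% of all genes tested. CCNE2, a cyclin of S phase entry, had 2.4, 1.32 and 1.29 CPM in BafA1 NPC, against 9.01, 8.9 and 7.36 CPM in control NPC (-2.33 ± 0.23 SE). CCNE1, the other cyclin E gene, had 10.6, 12.4 and 10.3 CPM in BafA1 NPC, against 28.5, 24.3 and 20.05 CPM in control NPC (-1.14 ± 0.13 SE). The CDK-activating phosphatase gene CDC25A fell (log2 change -1.11 ± 0.12 SE). E2F3 (-0.89 ± 0.10 SE), an activator, and the repressors E2F7 (-0.79 ± 0.096 SE) and E2F8 (-0.79 ± 0.17 SE) fell. The risers were CDK inhibitor genes. CDKN1C (p57) had 94.8, 97.2 and 132 CPM in BafA1 NPC, against 25.2, 34.5 and 37 CPM in control NPC (1.74 ± 0.16 SE, edgeR adjusted p = 1.89e-05). CDKN1B (p27) rose by 0.52 ± 0.11 SE, but was not called by limma on unfiltered FPKM (adjusted p = 0.0699). CDKN1A (p21) had 115, 135 and 164 CPM in BafA1 NPC and 140.1, 114 and 103 CPM in control NPC and did not pass the test (edgeR adjusted p = 0.311).

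Of 24 genes of G2 phase and mitosis, 12 fell, 2 rose and 10 did not pass the test (median -0.25). Over all genes tested, 20.7% fell and 20.8% rose by the same rule. None of the 24 fell by 2-fold, against 4.54% of all genes tested, and that absence is no result. Their summed level was 3533 to 3787 CPM in BafA1 NPC, against 4369.6 to 4583 CPM in control NPC. MKI67, a marker of cycling cells, had 268, 194 and 174 CPM in BafA1 NPC, against 382, 358 and 368 CPM in control NPC (-0.80 ± 0.13 SE). The centromere genes CENPF (-0.77 ± 0.097 SE) and CENPE (-0.57 ± 0.092 SE) and the separase gene ESPL1 (-0.65 ± 0.12 SE) also fell. The mitotic kinase gene PLK1 (0.29 ± 0.089 SE) and CDC20 (0.29 ± 0.082 SE), an activator of the anaphase-promoting complex, rose. The PLK1 call was lost without BafA1 NPC replicate 2 or control NPC replicate 2 or 3 (adjusted p = 0.0598 to 0.0671), and the CDC20 call without control NPC replicate 2 (0.0524). Both were lost under scaling by library size (0.163 and 0.133) and in 3 limma fits on FPKM (0.187 to 0.233 and 0.126 to 0.155). The CDC20 call was also lost once GC and length trends were removed (0.11, adjusted p = 0.217). Whether the median of the members and that of this list differ was not tested.

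Libraries of a group were not alike in these genes. Of the 52 members 39 were highest in replicate 1 among control NPC libraries and 42 were lowest in replicate 3. Among BafA1 NPC libraries 37 members were highest in replicate 2, and 27 were lowest in replicate 3. Across genes, the deviation of a library from the mean of all 9 correlated with transcript GC content at a Spearman's rho of -0.006, 0.048 and -0.03 in BafA1 NPC libraries, against -0.139, -0.217 and -0.338 in control NPC libraries. In hESC libraries it was 0.186, 0.105 and 0.136. Genes are not independent replicates for that value. Without control NPC replicate 1 the count of members that fell was 35, and over all libraries left out in turn it was 35 to 38. After removal of each library's trend with GC content and length, 39 fell and 4 rose. In all, 10 members overlap another gene with more than 1% of their counts (MCM7, ORC1, ORC3, ORC4, GINS2, RFC5, PRIM2, RPA3, TYMS and CHAF1A). The overlapping genes had 141% of the counts of ORC1, 130.3% of those of GINS2 and 5.63 to 78.3% of those of the other 8. The kit was stranded, but no source states whether counting used the strand, so reads in such overlaps could be split. Pseudogenes named after 9 members had at most 0.512% of the member's counts.

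The second comparison set control NPC against hESC. Of the 52, 22 fell and 9 rose, where 31.6% of all genes tested fell and 33% rose. In 22 members each control NPC library lay below each hESC library, against 35.8% of all genes tested. The median log2 change was -0.17, against 0.034 for all genes tested. It shares the control NPC libraries with the comparison above, so the changes in each are given side by side and their likeness is no result. In control NPC 5 of the 6 MCM2-7 genes fell. MCM5 had 90.1, 80.8 and 65.6 CPM in control NPC, against 240.3, 235 and 213 CPM in hESC (-1.54 ± 0.12 SE, edgeR adjusted p = 4.27e-07). MCM3 had 244, 209 and 184 CPM in control NPC, against 484, 451 and 450.01 CPM in hESC (-1.12 ± 0.13 SE). These 2 genes of the ring were the only members called with an estimate at least 2-fold lower, against 16.7% of all genes tested. MCM2 was the one ring gene not called (-0.20 ± 0.12 SE, edgeR adjusted p = 0.175), and its estimate turned positive once GC and length trends were removed (0.17, adjusted p = 0.154).

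Nucleotide supply divided in this comparison. RRM1 had 307, 298 and 302 CPM in control NPC, against 152, 156 and 152 CPM in hESC, and rose by 0.98 ± 0.087 SE (edgeR adjusted p = 1.11e-06). TYMS had 291, 261 and 233 CPM in control NPC, against 135, 124 and 128 CPM in hESC (1.02 ± 0.098 SE), the one rise of at least 2-fold in the estimate, against 17.3% of all genes tested. RRM2 (-0.75 ± 0.13 SE) and TK1 (-0.82 ± 0.14 SE) fell. The other risers were GINS2 (0.57 ± 0.098 SE), POLD3 (0.46 ± 0.076 SE), RFC5 (0.52 ± 0.090 SE), RFC1 (0.33 ± 0.078 SE), E2F2 (0.52 ± 0.19 SE), CLSPN (0.39 ± 0.15 SE) and CDC7 (0.21 ± 0.075 SE). After removal of GC and length trends CLSPN (0.17, adjusted p = 0.311), CDC7 (-0.14, adjusted p = 0.0644) and RFC1 (-0.014, adjusted p = 0.871) were no longer called, and the last pair changed sign. The CLSPN call was also lost without control NPC replicate 1 or hESC replicate 1 or 3 (adjusted p = 0.0562 to 0.155), the CDC7 call without any 1 of control NPC replicates 2 and 3 or the hESC replicates (0.0507 to 0.0961), and the E2F2 call without any 1 of control NPC replicates 1 and 2 or the hESC replicates (0.0517 to 0.109). The fall of GINS4 (-0.37 ± 0.14 SE) was lost without any 1 of control NPC replicates 2 and 3 or the hESC replicates (0.0527 to 0.121), and that of POLA1 (-0.20 ± 0.077 SE) without any of the same except hESC replicate 3 (0.0919 to 0.159). Both falls were also lost under scaling by library size (adjusted p = 0.139 and 0.321). In 3 limma fits on FPKM neither passed (0.0757 to 0.135 and 0.0808 to 0.132). Without a filter on low counts the POLA1 call was lost (0.067). With DESeq2 size factors in edgeR the CLSPN (0.0573) and CDC7 (0.0711) calls were lost, and limma on unfiltered FPKM did not call CLSPN (0.0577).

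Licensing factors CDC6 (-0.84 ± 0.11 SE) and CDT1 (-0.77 ± 0.11 SE) both fell in control NPC. CDT1 had 51.4, 50.03 and 45.3 CPM in control NPC, against 92.7, 78.4 and 79.1 CPM in hESC, while GMNN was at 93.1 ± 7.88 CPM and 85.2 ± 2 CPM in the same groups and was not called. ORC2 (-0.88 ± 0.090 SE), ORC1 (-0.67 ± 0.073 SE) and ORC3 (-0.41 ± 0.086 SE) fell, and the other ORC genes did not pass the test, though all 3 of these, ORC4 (-0.34, adjusted p = 0.00038), ORC5 (-0.29, adjusted p = 0.0154) and ORC6 (-0.26, adjusted p = 0.0181), were called lower after removal of GC and length trends. PCNA had 295, 274 and 254 CPM in control NPC and 275, 276 and 266 CPM in hESC, with overlapping libraries (0.011 ± 0.11 SE, edgeR adjusted p = 0.933). CHAF1A (-0.72 ± 0.13 SE), POLD2 (-0.71 ± 0.081 SE), RPA3 (-0.65 ± 0.12 SE) and PRIM1 (-0.54 ± 0.077 SE) were among the remaining falls. The fall of POLD1 (-0.49 ± 0.099 SE) did not pass once GC and length trends were removed. In that setting 30 members fell and 9 rose, and over libraries left out in turn 20 to 25 fell and 6 to 10 rose. The number that rose was 6 without hESC replicate 1 or 3.

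Set side by side, the 38 genes that fell in BafA1 NPC comprised 14 that had fallen in control NPC against hESC, 7 that had risen and 17 that were not called there. The 7 were CDC7, GINS2, POLD3, RRM1, TYMS, E2F2 and CLSPN. The 2 genes that rose in BafA1 NPC, CDT1 and POLD2, were both lower in control NPC than in hESC. Both comparisons use the control NPC libraries, so a deviation of those libraries moves the 2 changes of a gene in opposite directions. The same split was not made over all genes tested, and these counts are no result.

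In the third comparison, BafA1 NPC with hESC, 41 of the 52 genes fell and 4 rose, against 34.8% and 35.5% of all genes tested, and 17 fell by at least 2-fold (18.7% of all genes tested). No rise reached 2-fold, against 20.3% of all genes tested. The median log2 change was -0.73, against 0.023 for all genes tested. MCM5 was again the member with the lowest estimate (-2.17 ± 0.13 SE), followed by RRM2 (-1.95 ± 0.14 SE) and MCM6 (-1.91 ± 0.11 SE). GINS3 had 5.95, 6.7 and 5.5 CPM in BafA1 NPC, against 22.5, 23.3 and 20.6 CPM in hESC (-1.87 ± 0.16 SE), and CDC6 changed by -1.87 ± 0.11 SE. The 4 that rose were RRM1 (0.66 ± 0.087 SE), TYMS (0.64 ± 0.098 SE), RFC1 (0.38 ± 0.078 SE) and RFC5 (0.34 ± 0.090 SE). With limma on log2(FPKM + 1) the RFC5 call was lost (0.18, adjusted p = 0.196). The falls of POLD1 (-0.14, adjusted p = 0.0957), POLD2 (-0.076, adjusted p = 0.266) and LIG1 (-0.066, adjusted p = 0.410) did not pass once GC and length trends were removed, nor did that of RFC4 (-0.27 ± 0.099 SE) without any 1 library other than BafA1 NPC replicate 2 (adjusted p = 0.0596 to 0.0751). CDT1 had 77.3, 93.9 and 75.7 CPM in BafA1 NPC and 92.7, 78.4 and 79.1 CPM in hESC, with overlapping libraries (-0.021 ± 0.10 SE, edgeR adjusted p = 0.864), but was called higher once GC and length trends were removed (0.24, adjusted p = 0.0316). GINS2 was likewise at 65.2 ± 7.48 CPM in BafA1 NPC and 65.5 ± 4.21 CPM in hESC (-0.0073 ± 0.098 SE, edgeR adjusted p = 0.95).

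**Figure D5:**
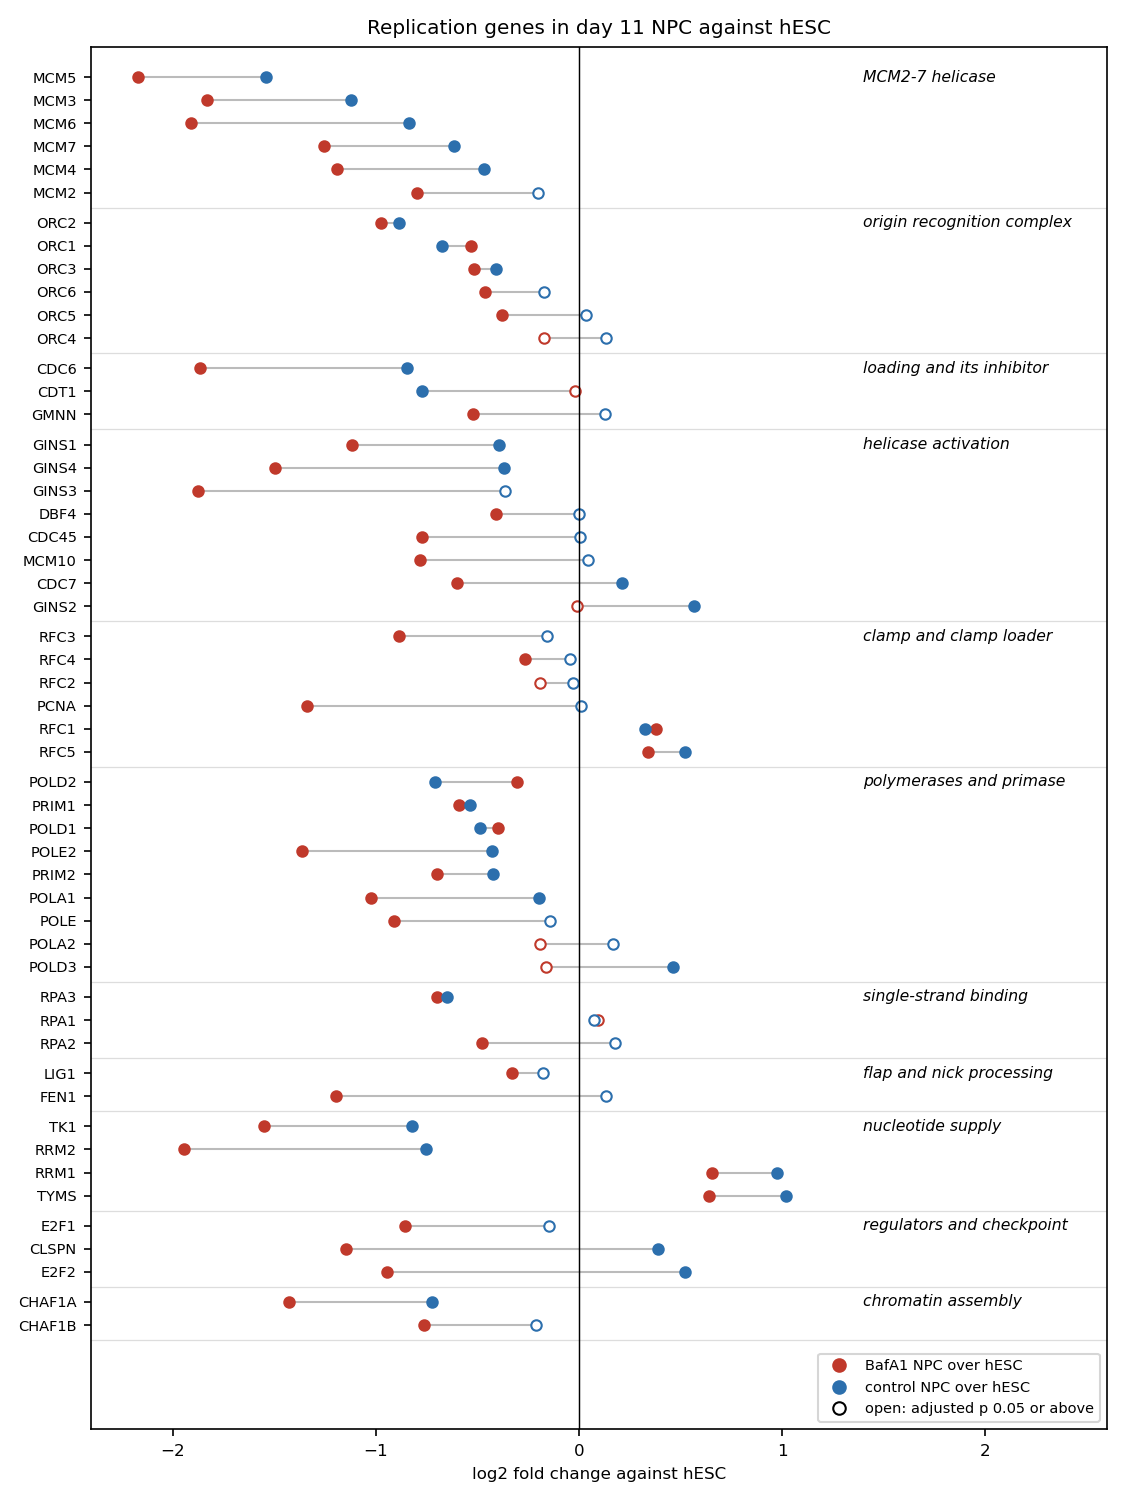
Log2 fold change against hESC of each of the 52 genes in BafA1 NPC (red) and control NPC (blue), joined by a line; both use the same hESC libraries, and open points have an edgeR adjusted p of 0.05 or above. Red points lie left of blue ones for most genes, with CDT1, POLD2, ORC1, POLD1, RFC1 and RPA1 in the other order; RRM1, TYMS, RFC1, RFC5 and, without a call, RPA1 lie right of 0 in both.

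Levels per transcript length set the members in order within BafA1 NPC. TYMS was the highest at 102 ± 3.24 FPKM, against 147 ± 17.6 FPKM in control NPC, where PCNA was the highest at 193 ± 16 FPKM. PCNA was at 67.5 ± 7.03 FPKM in BafA1 NPC, next to RRM1 (62.5 ± 4.13 FPKM) and MCM7 (57.8 ± 2.73 FPKM). The lowest members in BafA1 NPC were E2F2 (0.972 ± 0.286 FPKM), GINS3 (2.23 ± 0.151 FPKM) and CLSPN (2.41 ± 0.457 FPKM), against 3.04 ± 0.543, 7.2 ± 1.58 and 8.47 ± 1.98 FPKM in control NPC. FPKM values are as deposited and are not TMM-scaled, so their differences between groups carry the library scaling that the counts were corrected for.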

How the data were processed

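Per the labels' protocols, TRIZOL-extracted total RNA went into a stranded mRNA library preparation. The submitters' processing notes name Trimmomatic and the build GRCh38; the sources used here do not give the aligner or counter. Per the file headers, the deposited tables hold unnormalised read counts per gene and FPKM per gene. Columns were matched to samples by name, and the control columns went to untreated NPC, the one group left.

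Counts were tested with edgeR 4.0.16 in R 4.3.3 (filterByExpr, TMM, glmQLFit and glmQLFTest with 1 term per group on all 9 libraries, two-sided), with Benjamini-Hochberg adjustment over the 20685 genes tested. All 52 members passed the filter. SE was derived from the estimate and its F statistic. Alternatives used DESeq2 1.42.0, limma 3.58.1 on log2(FPKM + 1) or log2(FPKM + 0.1), other scalings and filters, a replicate block, trends with GC content and length of GENCODE transcripts, and each library left out. The procedure was run on simulated counts as a check of the code. These counts held neither the GC trends nor the uneven replicates of the data, so the run gives no support to the calls. The members and lists were chosen with earlier results of these data known. By rule all members are named, and of 3 other lists up to 4 genes per direction with the smallest adjusted p plus 9 fixed genes; 1 gene that the rule names is not reported here. No interval for counting error is given; every member had at least 270 counts in each library.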

Additional observations from a re-analysis of the deposited data

How the results depend on the processing

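The 3 comparisons were refitted under 10 other settings and with each library left out. Of the members called in BafA1 NPC against control NPC, 35 of 40 kept their call in every alternative run (exceptions ORC4, ORC6, POLA2, POLD2 and PRIM2). In BafA1 NPC against hESC 40 of 45 did (exceptions LIG1, POLD1, POLD2, RFC4 and RFC5), and in control NPC against hESC 24 of 31 (exceptions CDC7, CLSPN, E2F2, GINS4, POLA1, POLD1 and RFC1).

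The labels state no pairing by replicate number, and deviations of same-numbered libraries correlated at -0.055 to 0.088 across genes. These values cannot tell whether same-numbered libraries were made together. With a replicate block the members split into 2 higher and 38 lower in BafA1 NPC against control NPC, and MCM2 (-0.21), GINS3 (-0.38) and CHAF1B (-0.21) were also called lower in control NPC against hESC.

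In BafA1 NPC against control NPC the members' median was -0.75 under scaling by library size alone, -0.73 and -0.77 with limma on log2(FPKM + 1) and log2(FPKM + 0.1), and -0.73 with limma on all genes above 0, where 1 member rose. After removal of GC and length trends 4 rose (ORC1, CDT1, POLD2 and RFC1). In the first of these limma fits 2941 of all genes were called higher and 5729 lower, against 4309 and 4277 with edgeR. With libraries left out in turn the median was -0.69 to -0.55, with 2 members higher in each fit and 35 to 38 lower. In control NPC against hESC the median was -0.069 under library size alone, -0.11, -0.12 and -0.11 in the 3 limma fits and -0.26 without GC and length trends. With libraries left out it was -0.24 to -0.098, with 6 to 10 higher and 20 to 25 lower. In BafA1 NPC against hESC it was -0.77 with DESeq2 size factors, -0.77 with DESeq2 and -0.70, -0.79 and -0.70 in the limma fits. With libraries left out it was -0.78 to -0.70, with 4 higher in each fit and 40 to 42 lower.

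Estimates of members and named genes that changed sign in BafA1 NPC against control NPC under library size alone were RFC1 (-0.079), POLD1 (-0.041), RPA1 (-0.11) and RRM2B (-0.025). With limma on log2(FPKM + 1) these were ORC1 (-0.0066), RFC1 (-0.096), POLD1 (-0.054), RPA1 (-0.13) and RRM2B (-0.072). With limma on log2(FPKM + 0.1) these were ORC1 (-0.007), RFC1 (-0.099), POLD1 (-0.056), RPA1 (-0.13) and RRM2B (-0.078). With limma on all genes above 0 these were ORC1 (-0.0066), RFC1 (-0.096), POLD1 (-0.054), RPA1 (-0.13) and RRM2B (-0.072). Without GC and length trends these were ORC2 (0.088), ORC3 (0.012) and POLD1 (-0.14). In the comparisons with hESC only members were followed, not the other named genes. Estimates of members that changed sign in control NPC against hESC under library size alone were RFC2 (0.075) and RFC4 (0.060). With DESeq2 size factors these were ORC5 (-0.012), MCM10 (-0.0024), CDC45 (-0.041), DBF4 (-0.044) and PCNA (-0.035). In a fit of the 2 groups alone these were CDC45 (-0.013), DBF4 (-0.015) and PCNA (-0.0057). With DESeq2 these were ORC5 (-0.012), MCM10 (-0.0025), CDC45 (-0.041), DBF4 (-0.044) and PCNA (-0.035). With limma on log2(FPKM + 1) these were RFC2 (0.032) and RFC4 (0.014). With limma on log2(FPKM + 0.1) these were RFC2 (0.032) and RFC4 (0.014). With limma on all genes above 0 these were RFC2 (0.032) and RFC4 (0.014). Without GC and length trends these were MCM2 (0.17), ORC4 (-0.34), ORC5 (-0.29), GMNN (-0.14), MCM10 (-0.23), CDC7 (-0.14), DBF4 (-0.35), PCNA (-0.19), RFC1 (-0.014), RFC2 (0.15), POLE (0.034), LIG1 (0.12) and E2F1 (0.33). Of these, ORC4, ORC5, DBF4 (edgeR adjusted p = 0.00114) and MCM10 (0.0277) were called lower and E2F1 (0.0296) higher. Falls of ORC6, RFC3 (-0.50, edgeR adjusted p = 0.000535), GINS3 (-0.57, 0.00593), RFC4 (-0.24, 0.0109) and CHAF1B (-0.26, 0.0239) also gained a call there. So did rises of POLA2 (0.40, edgeR adjusted p = 0.00176) and FEN1 (0.35, 0.0223). Estimates of members that changed sign in BafA1 NPC against hESC without GC and length trends were CDT1 (0.24), GINS2 (0.041) and POLA2 (0.034). With libraries left out, the ranges that crossed 0 in BafA1 NPC against control NPC were -0.16 to 0.0011 for ORC2, -0.013 to 0.17 for POLD1, -0.095 to 0.0038 for PRIM1, -0.0036 to 0.053 for RPA1, -0.14 to 0.070 for RPA3 and -0.16 to 0.27 for RRM2B. With libraries left out, the ranges that crossed 0 in control NPC against hESC were -0.058 to 0.095 for CDC45, -0.032 to 0.030 for DBF4, -0.013 to 0.28 for FEN1, -0.025 to 0.12 for MCM10, -0.043 to 0.066 for PCNA and -0.15 to 0.084 for RFC2. With libraries left out, the ranges that crossed 0 in BafA1 NPC against hESC were -0.12 to 0.058 for CDT1 and -0.094 to 0.059 for GINS2.

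The cause of these differences was not tested. With 3 libraries a group from a single line, the values describe these libraries.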
